A study of Mus musculus with 4 samples.

Results

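The cells described here are F3 Hcar2 Egln3 neutrophils of the mouse lung, 2037 of 18985 kept cell barcodes. A barcode was kept if it held 200 genes or more and no more than 10% of its UMIs (unique molecular identifiers, one per captured RNA molecule) were mitochondrial. It counted as a neutrophil when S100a8 and S100a9 made up at least 2% of its gene UMIs, when it held at least 1 UMI of Csf3r, Cxcr2, Il1r2 and Retnlg summed, when Cd79a, Cd3e and C1qa were all at 0, and when the interferon-induced genes Ifit1, Ifit2, Ifit3, Ifit3b and Rsad2 summed to under 3 UMIs. A neutrophil was a member when F3, Hcar2, Egln3 and Rnd1 summed to at least 2 UMIs. Members were thus chosen by the measured UMIs of these 4 genes, whose levels below are a description. Members numbered 1036 of 10041 kept barcodes in the library labelled Plaur KO and 1001 of 8944 in the library labelled WT (the KO and the WT library from here on).

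Both libraries came from CD45.2+ lung leukocytes of C57B6/J mice with an allergic airway inflammation. The KO mice lack Plaur, which encodes the urokinase receptor uPAR, and the WT mice carry it. Both genotypes received lipopolysaccharide with ovalbumin on day 0 and again on day 7 to sensitize them, then breathed an ovalbumin aerosol on day 14, with 8 mice per genotype in the design. Each genotype has 1 library of gene counts and 1 of antibody tags, the labels name no unchallenged mice, and how many mice each library pools is not stated. The labels call the sorted cells circulating leukocytes in one field and total lung lysate in another. With 1 library per genotype there is no replicate check and no test, and genotype cannot be told apart from library. The intervals given are 95% intervals for counting error only.

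Neutrophils are short-lived granulocytes that enter inflamed airways, where cytokines, microbial products and low oxygen change their transcription. F3 encodes tissue factor, the cell-surface trigger of blood coagulation, and uPAR gathers urokinase and so plasminogen activation at the cell surface. Hcar2 encodes a receptor for beta-hydroxybutyrate and niacin, Egln3 the prolyl hydroxylase PHD3, which tags hypoxia-inducible factors for degradation and is itself induced by them, and Rnd1 a protein that loosens the actin skeleton. Acod1, the fifth gene given as a marker of these cells but not used to choose them, encodes the enzyme that makes itaconate.

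The 5 genes lie on 5 chromosomes: F3 at chr3:121723537-121735052, Hcar2 at chr5:123863570-123865516, Egln3 at chr12:54178981-54203874, Rnd1 at chr15:98669205-98677461 and Acod1 at chr14:103047012-103056573 (GRCm38.p6, RefSeq). Promoters, from 250 bases before to 50 after the start of the gene, were at hand for F3 (chr3:121723287-121723586, plus strand), Egln3 (chr12:54203825-54204124, minus strand) and Acod1 (chr14:103046762-103047061, plus strand). They are shown because F3 and Egln3 are genes of the rule and Acod1 is the fifth marker. Capitals mark matches to ACGTG, the core of the hypoxia-response element, and to TGANTCA, the AP-1 site, searched on both strands (the capitals in Acod1 are the reverse-strand form of the first).
F3: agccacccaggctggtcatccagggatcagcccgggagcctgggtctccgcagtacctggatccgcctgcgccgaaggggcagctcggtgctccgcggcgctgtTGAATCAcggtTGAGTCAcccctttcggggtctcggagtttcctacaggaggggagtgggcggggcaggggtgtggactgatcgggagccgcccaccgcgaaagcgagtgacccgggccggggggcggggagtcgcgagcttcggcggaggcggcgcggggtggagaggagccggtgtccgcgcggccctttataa
Egln3: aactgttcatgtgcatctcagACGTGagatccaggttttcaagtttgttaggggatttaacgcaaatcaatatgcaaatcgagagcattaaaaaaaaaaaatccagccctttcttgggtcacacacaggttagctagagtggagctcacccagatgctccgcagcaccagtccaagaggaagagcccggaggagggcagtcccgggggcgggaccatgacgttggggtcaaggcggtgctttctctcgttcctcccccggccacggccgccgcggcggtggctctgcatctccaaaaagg
Acod1: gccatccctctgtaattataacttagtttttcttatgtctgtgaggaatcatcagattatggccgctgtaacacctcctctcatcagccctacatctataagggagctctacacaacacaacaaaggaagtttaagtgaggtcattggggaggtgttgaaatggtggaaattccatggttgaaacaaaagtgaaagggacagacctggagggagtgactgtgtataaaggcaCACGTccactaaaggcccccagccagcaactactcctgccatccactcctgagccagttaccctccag
The F3 promoter held 2 AP-1 matches, at -146 and -135 from the start, and no hypoxia core. The Egln3 promoter held 1 hypoxia core at -229, and the Acod1 promoter 1 at -18. Neither of these 2 held an AP-1 match. Of 32851 mouse promoters of this length, 19.6% held the hypoxia core and 7.81% the AP-1 site. A match is a stretch of letters and says nothing of binding.

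The libraries held 47442215 gene UMIs (KO) and 42913843 (WT), and 16 cell barcodes occurred in both libraries, none of them members. Members were deeper than the neutrophils with 0 UMIs of the 4 genes (0-UMI neutrophils, 1261 KO and 654 WT), with a median of 2589 UMIs against 1695 in the KO library and 2292 against 1566.5 in the WT library. The rule itself asks for S100a8, S100a9 and receptor genes of neutrophils, so their presence is no check of the label, and all 10 neutrophil markers were detected in the members of both libraries. The eosinophil genes Epx, Prg2, Prg3 and Ear6, which the rule does not use, were at 0 in the members of both libraries. The other 4 of 8 eosinophil markers were detected in the members of each library. The 8 summed to 10.1 CPM (UMIs per 1000000 gene UMIs of the group) in KO members and 11.6 CPM in WT members. The summed neutrophil marker level was 90783 CPM in KO members and 88546 CPM in WT members. In the 0-UMI neutrophils of the same libraries it was 128282 and 111544 CPM. RNA of classical monocytes was present too: its 7 markers, all detected, summed to 1863 CPM in KO members and 767 CPM in WT members, against 1007 and 373 CPM in 0-UMI neutrophils. Barcodes with UMIs of at least 3 markers of 1 of 16 other cell types are called mixed here. They made up 18.0% of KO members with 48.6% of their UMIs, and 11.8% of WT members with 33.9%. Without them the monocyte markers summed to 168 CPM in KO and 148 CPM in WT members, and the median depth of members was 2089 (KO) and 2097 (WT). Markers of nonclassical monocytes, 6 of 6 detected, summed to 322 CPM in KO and 508 CPM in WT members, against 277 and 473 CPM in 0-UMI neutrophils. The part of this RNA in the results was not tested. Values below include mixed barcodes unless they are said to leave them out, and the main ones are given both ways.

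Hcar2 was the commonest of the 4 genes among members. It was found in 87.3% of KO members (85.1 to 89.2) and 92.2% of WT members (90.4 to 93.8), at 549.9 and 819 CPM. Egln3 was found in 49.9% of KO and 42.4% of WT members, at 258 and 276 CPM. F3 was found in 21.4% of KO members (19.0 to 24.1) and 31.3% of WT members (28.4 to 34.2), at 108 and 194 CPM. Rnd1 was the rarest, in 16.6% of KO and 19.8% of WT members, at 56.0 and 106 CPM. Hcar2, F3 and Rnd1 were thus lower in the KO library in share and level, whereas Egln3 had the higher share in KO members and nearly the same level. F3, the first gene in the name of these cells, was thus absent from the counts of most of them. In B cells, which should lack the neutrophil genes, 0.384% of KO and 0.0720% of WT barcodes held 2 or more UMIs of the 4 genes, at median depths of 2200.5 and 2436 UMIs. These B cells were barcodes with Cd79a and Cd79b and with no UMI of Csf3r, Cxcr2 and Il1r2. That choice itself leaves out barcodes with free neutrophil RNA, so the share can be too low as a level of free RNA. Among all kept barcodes that were neither neutrophils of the rule nor interferon-high neutrophils, 8.09% (KO) and 8.11% (WT) held 2 or more. How much of that is free RNA was not tested.

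Most members held 1 or 2 of the 4 genes: 40.9% of KO and 37.4% of WT members held 1, 44.8% and 43.5% held 2, 12.5% and 15.4% held 3, and 1.83% and 3.8% held all 4. Hcar2 alone made up 31.2% of KO and 32.3% of WT members, Egln3 alone 8.11% and 3.20%, and F3 alone 0.772% and 1.10%. Without mixed barcodes, Rnd1 was found more often in members with F3 than without it, in 25.7% against 12.1% in the KO library and 29.9% against 13.9% in the WT library. Rnd1 was found less often with Egln3 than without it, in 7.97% against 21.6% in the KO library and 15% against 21.2% in the WT library. F3 and Egln3 showed no such excess: Egln3 was found in 45.3% of KO members with F3 and 49.6% without, and in 35.6% and 42.0% of WT members. Because the rule asks for a sum of 2 UMIs, a member without one gene must hold another, which lowers each of these pairings. The summed count had a median of 3 UMIs in KO members and 4 in WT members, and a maximum of 27 and 33.

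**Figure D1:**
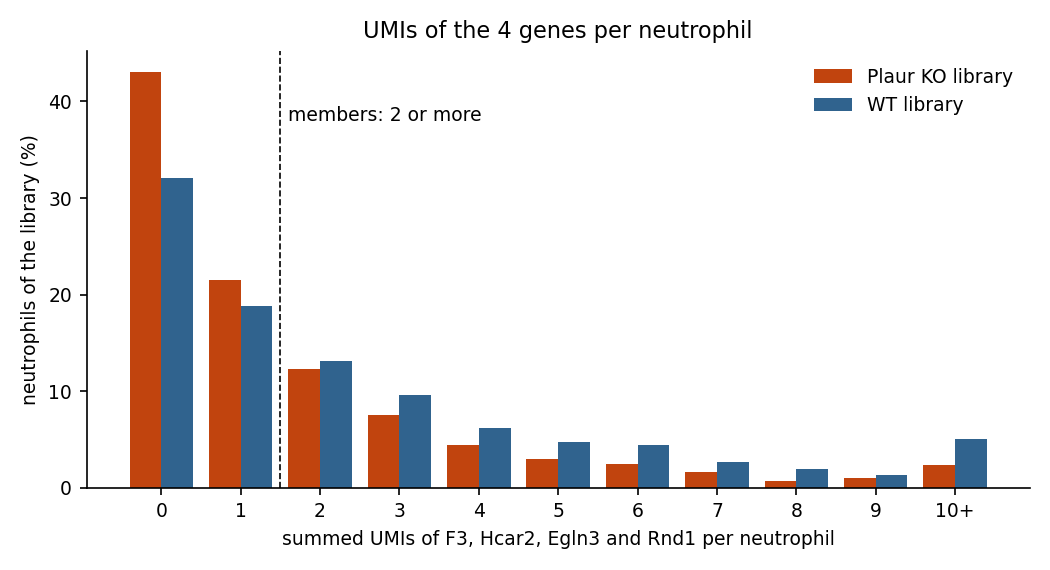
Share of each library's neutrophils (vertical axis, %) by the summed UMIs of F3, Hcar2, Egln3 and Rnd1 in the barcode (horizontal axis), with bars for the Plaur KO library on the left and the WT library on the right of each step. The KO library had the higher share at 0 UMIs (43.1% against 32.1%) and at 1 UMI, and the lower share at every step from 2 UMIs up.

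Members made up 35.4% of the neutrophils in the KO library (1036 of 2926, 33.7 to 37.2) and 49.1% in the WT library (1001 of 2038, 46.9 to 51.3), a log2 ratio of shares of -0.47 for KO over WT. The share was lower in the KO library under each setting that was tried. It was 33.0% (KO) against 47.1% (WT) without mixed barcodes, 23.1% against 36.0% at a minimum of 3 UMIs, and 15.1% against 25.8% after every barcode was thinned to 1000 UMIs. The neutrophils themselves made up 29.1% of kept barcodes in the KO library and 22.8% in the WT library, so as a share of all kept barcodes members differed less, 10.3% (9.73 to 10.9) in KO and 11.2% (10.5 to 11.9) in WT. Interferon-high neutrophils, which the rule leaves out, numbered 548 in the KO and 133 in the WT library. With them counted by the same 4 genes, the shares were 39.6% (KO) and 50.3% (WT).

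Gene by gene, over all neutrophils of the rule, F3 was found in 8.65% of KO neutrophils (7.65 to 9.72) and 16.4% of WT neutrophils (14.9 to 18.1). Hcar2 was found in 46.6% and 59.7%, Rnd1 in 7.07% and 10.6%, and Egln3 in 21.2% (19.8 to 22.8) and 23.2% (21.3 to 25.1). By ratio F3 differed most between the libraries, in percentage points Hcar2 did, and the intervals for Egln3 overlap. After thinning to 1000 UMIs F3 was found in 5.02% of KO and 9.04% of WT neutrophils, Rnd1 in 2.85% and 5.41%, Hcar2 in 27.3% and 39.2%, and Egln3 in 11.3% and 12.1%, so that Rnd1 then had the largest ratio. Acod1, outside the rule, was found in 70.5% of KO and 71.7% of WT neutrophils, and after thinning in 54.6% and 61.7%. Its level over all neutrophils of the rule was 1442 CPM (KO) and 2211 CPM (WT). Members held 43.7% (KO) and 53.6% (WT) of all UMIs of the 4 genes in kept barcodes.

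At the edges of the rule the values ran on. Just outside by the 4 genes, 629 KO and 383 WT neutrophils held 1 UMI. Just outside by S100a8 and S100a9, at 1% to under 2% of UMIs, 35.4% of 353 KO and 37.9% of 219 WT barcodes held 2 or more UMIs of the 4 genes. Just inside, at 2% to under 3%, 42.2% of 294 KO and 48.6% of 181 WT barcodes did. Among barcodes barred for a UMI of Cd79a, Cd3e or C1qa alone, 53.8% of 210 KO and 68.1% of 119 WT barcodes held 2 or more. These were deep, with a median of 6090 (KO) and 7346 UMIs (WT), 89.0% and 84.0% of them were mixed, and the 4 genes summed to 305 and 609 CPM.

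Beyond the genes of the rule, members had higher levels than 0-UMI neutrophils of an interferon-induced chemokine, guanylate-binding proteins, interleukin 1 alpha, the checkpoint ligand PD-L1 and feedback inhibitors of cytokine signalling, and lower levels, within 2-fold, of Klf2 and Tsc22d3. Of 8148 genes with at least 20 UMIs in each library, 169 (2.07%) were more than 2-fold higher in members in both libraries and 13 (0.16%) more than 2-fold lower. Without mixed barcodes the counts were 159 (2.47%) and 13 (0.202%) of 6442 genes, of which 83 and 3 were shared with the first counts. After thinning to 1000 UMIs the counts were 144 and 19, of which 74 and 0 were shared with the first, so no gene called lower was called again after thinning. Both groups come from the same library, so these ratios carry no genotype, but a barcode with more UMIs passes the rule more easily. This is a description of chosen barcodes and no test.

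Cxcl10, which encodes a chemokine for T cells that interferons induce, had 376 CPM in members and 75.4 CPM in 0-UMI neutrophils of the KO library, and 684 CPM in members and 100 CPM in 0-UMI neutrophils of the WT library. Its log2 ratios were 2.32, 2.11 to 2.53 (KO) and 2.77, 2.51 to 3.05 (WT), and it was found in 19.3% of KO members against 3.65% of KO 0-UMI neutrophils and in 34.3% against 6.27% in the WT library. Gbp5, a guanylate-binding protein of the defence against intracellular microbes, had 134 CPM in members and 32.3 CPM in 0-UMI neutrophils of the KO library, and 180.5 CPM in members and 17.4 CPM in 0-UMI neutrophils of the WT library. In both libraries members were the higher group for both genes, and WT members held more Cxcl10 than KO members. Il1a, the alarmin interleukin 1 alpha, had 74.3 CPM in members and 18.1 CPM in 0-UMI neutrophils of the KO library, and 119 CPM in members and 22.3 CPM in 0-UMI neutrophils of the WT library. Cd274, which encodes PD-L1, the ligand that restrains T cells, had 467 CPM in members and 142 CPM in 0-UMI neutrophils of the KO library, and 885 CPM in members and 234 CPM in 0-UMI neutrophils of the WT library. For Cd274 the WT library was the higher of the libraries in members and in 0-UMI neutrophils alike. Olr1, the receptor for oxidized lipoprotein LOX-1, had 499 CPM in members and 157 CPM in 0-UMI neutrophils of the KO library, and 1304 CPM in members and 369 CPM in 0-UMI neutrophils of the WT library. Socs1 and Cish, inhibitors of cytokine receptor signalling, had log2 ratios of 2.13 and 2.18 in the KO library and 1.66 and 1.85 in the WT library. The other genes among the 12 highest by the naming rule were Ccl4, a chemokine for monocytes and T cells (log2 ratios 1.65 and 1.51), Gbp2 (1.55 and 2.76), the T and myeloid cell GTPase-activating protein Tagap (1.86 and 2.82), the growth factor Nrg1 (2.10 and 3.49) and the decoy receptor Tnfrsf26 (2.23 and 2.01), with KO before WT. Without mixed barcodes all 12 stayed more than 2-fold higher in both libraries, and Prdm1, which encodes the transcriptional repressor Blimp-1, Icam1, an adhesion molecule, Ralgds and Ifi47 came among the 12 highest, at 2.29, 2.55, 2.48 and 2.11 (KO) and 2.95, 2.25, 2.54 and 4.62 (WT). So did the chemokine gene Ccl17, which was found in 1.35% of KO and 1.10% of WT members only. Nrg1 rested on few UMIs in KO members without mixed barcodes, 5 in those with F3 and 7 in those without it. In WT members it had 44 and 33.

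**Figure D2:**
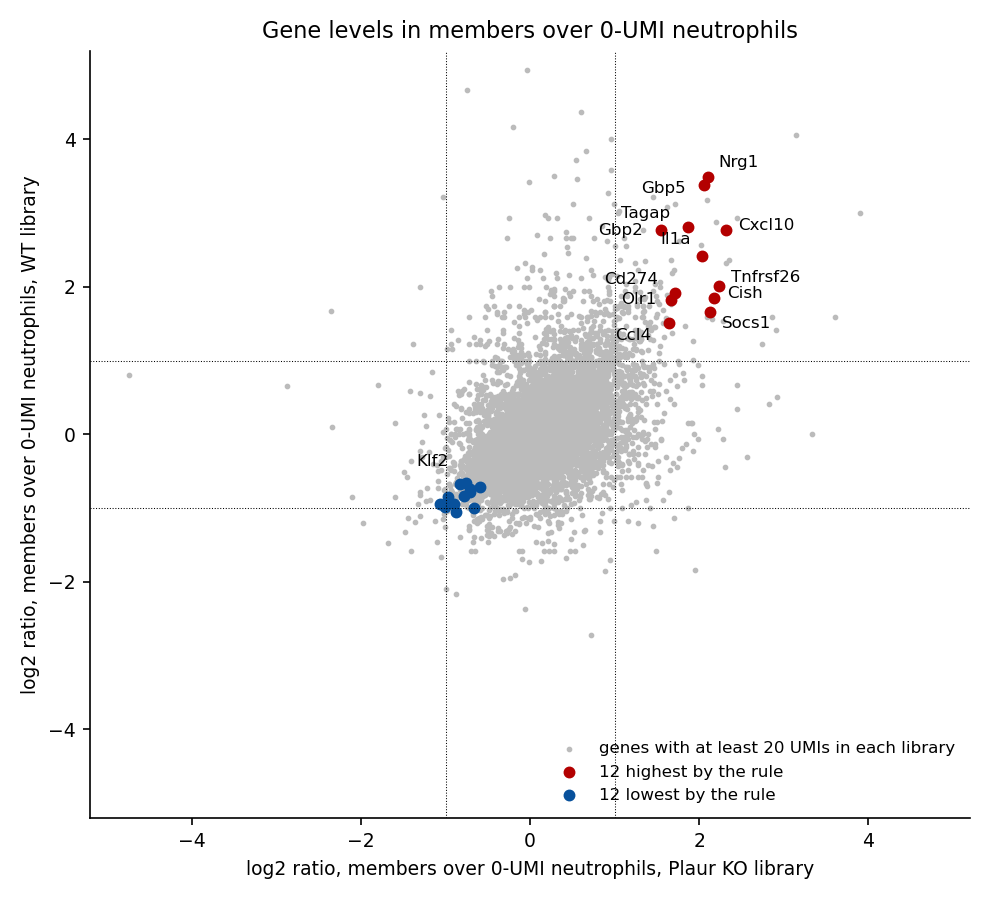
Log2 ratio of members over 0-UMI neutrophils for every gene with at least 20 UMIs in each library outside the rule, in the Plaur KO library (horizontal axis) and the WT library (vertical axis). Red and blue points are the 12 highest and 12 lowest genes by the naming rule, dotted lines mark 2-fold, and 2 genes lie outside the axes. The red genes, led by Cxcl10, Gbp5 and Nrg1, lie beyond 2-fold in both libraries, and the blue genes, with Klf2 among them, lie near or within 2-fold lower.

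Genes lower in members differed less. Klf2, a transcription factor of quiescent leukocytes, had 857 CPM in members and 1447 CPM in 0-UMI neutrophils of the KO library, and 823 CPM in members and 1298 CPM in 0-UMI neutrophils of the WT library. Tsc22d3, the glucocorticoid-induced leucine zipper GILZ, had 207 CPM in members and 338 CPM in 0-UMI neutrophils of the KO library, and 109 CPM in members and 186 CPM in 0-UMI neutrophils of the WT library. Both were lower in members in both libraries. Trp53inp1 (log2 ratios -1.07 and -0.94) and St3gal5, which makes the ganglioside GM3 (-0.88 and -1.06), were the furthest down with 9830107B12Rik (-1.01 and -0.99). The other 7 of the 12 lowest, Nt5c2, Mctp2, Bmx, Pip5k1b, AI467606, Rdh12 and Tmcc1, lay between -0.97 and -0.59 in the KO library and between -1.0 and -0.68 in the WT library. The gelatinase B gene Mmp9 (log2 ratios -0.66 and -0.55) and the retention receptor gene Cxcr4 (-0.47 and -0.40) were lower in members by less than 2-fold.

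Acod1 had 1851 CPM in members and 946 CPM in 0-UMI neutrophils of the KO library, and 2775 CPM in members and 1049.6 CPM in 0-UMI neutrophils of the WT library. The log2 ratios were 0.97, 0.91 to 1.03 (KO) and 1.40, 1.32 to 1.49 (WT), and without mixed barcodes 1.32 in the KO library and 1.54 in the WT library, so the fifth marker was more than 2-fold higher in members of both libraries once mixed barcodes were left out. Enzymes that handle reactive oxygen were split. Sod2, mitochondrial superoxide dismutase, had 197 CPM in members and 70.7 CPM in 0-UMI neutrophils of the KO library, and 342 CPM in members and 83.5 CPM in 0-UMI neutrophils of the WT library, and Txnrd1, thioredoxin reductase, had log2 ratios of 1.29 and 1.27. Glutathione reductase Gsr (-0.29 and -0.22) and thioredoxin Txn1 (-0.27 and -0.25) were slightly lower. Over the whole list for itaconate, NRF2 and oxidative stress, 18 of 25 measured genes were higher in KO members and 16 of 25 in WT members, with medians of 0.14 and 0.06 against 0.09 and 0.00 for all genes.

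Genes of the list of NF-kB targets and cytokines were mostly higher in members. In the KO library 36 of its 42 measured genes were higher in members and 16 were past 2-fold, against 5.67% of all genes past 2-fold there. In the WT library 37 of 42 were higher and 15 past 2-fold, against 7.04% of all genes. The medians were 0.65 and 0.75, and 0.74 and 0.80 without mixed barcodes. Icam1 (log2 ratios 1.62 and 1.89) and the activation antigen Cd69 (1.35 and 1.84) followed Cxcl10 and Il1a. The most abundant cytokine gene of the list did not follow: Il1b, interleukin 1 beta, had 9499.6 CPM in members and 10298 CPM in 0-UMI neutrophils of the KO library, and 13706 CPM in members and 14029.6 CPM in 0-UMI neutrophils of the WT library, log2 ratios of -0.12 and -0.03. Ptgs2, the prostaglandin synthase COX-2, was lower in members of both libraries (-0.49 and -0.35).

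Interferon-induced genes were higher in members although the rule removes the barcodes with the highest Ifit counts. Of 38 measured genes of the type I response, 33 were higher in KO members (4 past 2-fold) and 32 in WT members (12 past 2-fold), with medians of 0.48 and 0.63. Of all genes 58.7% were higher in KO members (5.67% past 2-fold) and 51.2% in WT members (7.04% past 2-fold), with medians of 0.09 and 0.00. Guanylate-binding proteins and immunity-related GTPases, a list added after seeing the data, had medians of 1.00 (KO) and 1.63 (WT), with 9 and 10 of 12 measured genes higher and 6 and 7 past 2-fold. Gbp7 (log2 ratios 0.94 and 1.62), Igtp (1.00 and 1.69) and Irgm1 (1.5 and 1.64) were among those higher in both libraries. Iigp1 had -1.44 and -1.14 but rested on few UMIs, 17 in members and 28 in 0-UMI neutrophils (KO) and 15 and 11 (WT). Its WT interval, -2.36 to 0.13, held 0. Without mixed barcodes the Iigp1 ratios were 0.85 (KO, -1.37 to 3.48) and -2.18 (WT). Cmpk2 (-0.55 and -0.71) and Trim30b (-0.37 and -0.12) of the type I list were lower.

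Survival genes were mostly higher in members, with 21 of 26 higher in the members of each library and medians of 0.32 (KO) and 0.48 (WT). Of all genes 58.7% (KO) and 51.2% (WT) were higher, with medians of 0.09 and 0.00. The anti-apoptotic Bcl2a1b had 403 CPM in members and 147 CPM in 0-UMI neutrophils of the KO library, and 619.6 CPM in members and 255 CPM in 0-UMI neutrophils of the WT library, whereas Mcl1 (-0.23 and -0.15) and the pro-apoptotic Bid (-0.72 and -0.85) were lower. Receptors for metabolites and lipids were higher in members in 14 (KO) and 15 (WT) of 20, medians 0.47 and 0.50, beside the same shares and medians of all genes. Gpr84, a receptor for medium-chain fatty acids, had log2 ratios of 1.67 and 2.36, and Ffar2, a receptor for short-chain fatty acids, 2.03 and 0.67. The formyl peptide receptor gene Fpr1 was lower (-0.49 and -0.41).

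Hypoxia and HIF target genes, the pathway of Egln3, were not higher as a list. Of 28 measured genes other than Egln3, 15 were higher in KO members and 9 in WT members, with medians of 0.03 and -0.17 against 0.09 and 0.00 for all genes. Single genes differed: Bhlhe40, a transcription factor induced by low oxygen and by cytokines, had 157 CPM in members and 76.2 CPM in 0-UMI neutrophils of the KO library, and 161 CPM in members and 79.3 CPM in 0-UMI neutrophils of the WT library, and the lipid droplet gene Hilpda had log2 ratios of 1.25 and 1.16. The glucose transporter gene Slc2a3 was lower (-0.63 and -0.71). Glycolysis genes were higher in 7 of 17 (KO) and 9 of 17 (WT), with Hk1, which encodes the first enzyme of the path, the one past 2-fold in each library (1.03 and 1.32).

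Of the coagulation and plasminogen genes, the pathway of F3 and Plaur, 9 of 14 measured were higher in the members of each library, with medians of 0.37 (KO) and 0.35 (WT), against 58.7% (KO) and 51.2% (WT) of all genes higher and medians of 0.09 and 0.00. Without mixed barcodes 6 (KO) and 7 (WT) of 11 were higher, with medians of 0.58 and 0.31 against -0.05 and -0.12 for all genes. Serpinb2, the plasminogen activator inhibitor PAI-2, had 22.3 CPM in members and 4.35 CPM in 0-UMI neutrophils of the KO library, and 21.2 CPM in members and 4.13 CPM in 0-UMI neutrophils of the WT library. F10, coagulation factor X, which tissue factor with factor VII activates, had 66.8 CPM in members and 27.6 CPM in 0-UMI neutrophils of the KO library, and 24.2 CPM in members and 9.92 CPM in 0-UMI neutrophils of the WT library. Without mixed barcodes F10 had 21.9 CPM in members and 6.66 CPM in 0-UMI neutrophils of the KO library, and 10.4 CPM in members and 1.89 CPM in 0-UMI neutrophils of the WT library. Both genes were low, and both were higher in members. Factor V, F5, was lower (-0.20 and -0.32). Thbs1, thrombospondin, was lower in members of the WT library (-0.72) and nearly the same in the KO library (-0.04), with 162 CPM in members and 166 CPM in 0-UMI neutrophils.

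For the remaining lists, the counts stand beside 58.7% (KO) and 51.2% (WT) of all genes higher and the medians beside 0.09 and 0.00. Immediate early genes were higher in 22 of 35 in each library, medians 0.26 (KO) and 0.09 (WT), with Ier3 at 1.30 and 1.27. Interleukin and growth factor receptors and their inhibitors were higher in 17 (KO) and 20 (WT) of 24, medians 0.19 and 0.27. Migration receptors were higher in 13 of 24 in each library (0.15 and 0.09), and matrix and remodelling genes in 11 (KO) and 9 (WT) of 16 (0.36 and 0.12). Without mixed barcodes migration receptors were higher in 10 (KO) and 11 (WT) of 21 (-0.03 and 0.04), and matrix genes in 8 (KO) and 6 (WT) of 12 (0.13 and -0.09). The median of all genes without mixed barcodes was -0.05 (KO) and -0.12 (WT). Genes of maturation and ageing were higher in 9 (KO) and 14 (WT) of 32, medians -0.25 and -0.09, and granule genes in 10 of 22 in each library, -0.21 and -0.03. Without mixed barcodes the maturation medians were -0.10 (KO) and -0.02 (WT), against the -0.05 and -0.12 of all genes, so only the KO median lay below that of all genes.

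Levels of Acod1, Cd274 and Klf2 ran in one direction with the summed UMIs of the 4 genes, and those of Il1b did not. Without mixed barcodes, and in the classes of 0, 1, 2, 3 to 4 and 5 or more UMIs, Acod1 had 1097, 1489, 1951, 2478 and 3673 CPM in the KO library and 1128, 1639.8, 2429.6, 2950.2 and 3891 CPM in the WT library. Cd274 had 145, 240.5, 419, 573 and 976 CPM in the KO library and 232, 424, 660.4, 959 and 1132 CPM in the WT library. Both climbed at every step in both libraries. Klf2 ran down at every step, with 1621, 1422, 1092, 945 and 908 CPM in the KO library and 1369.9, 1210.1, 966, 837 and 704 CPM in the WT library. Gbp5 had 27.1, 50, 120.4, 162 and 262 CPM in the KO library and 17.1, 80.5, 175, 188 and 228 CPM in the WT library, so that the KO library was lower in the classes of 1, 2 and 3 to 4 UMIs and higher in the lowest and the top class, and its largest fold step in the KO library lay between 1 and 2 UMIs. Il1b stayed between 12002 and 13506 CPM in the KO library and between 15387 and 16729 CPM in the WT library. Depth ran with the classes, from a median of 1695 UMIs at 0 to 3825 at 5 or more in the KO library and from 1566.5 to 3488 in the WT library, mixed barcodes included. In barcodes thinned to 1000 UMIs, Acod1 had 1051, 1421, 1825, 2344 and 3519 CPM (KO) and 1087, 1605, 2564, 3194 and 4178 CPM (WT), and Klf2 1619.7, 1369, 1023, 859 and 747 CPM (KO) and 1430.2, 1218, 919, 705 and 569.7 CPM (WT).

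**Figure D3:**
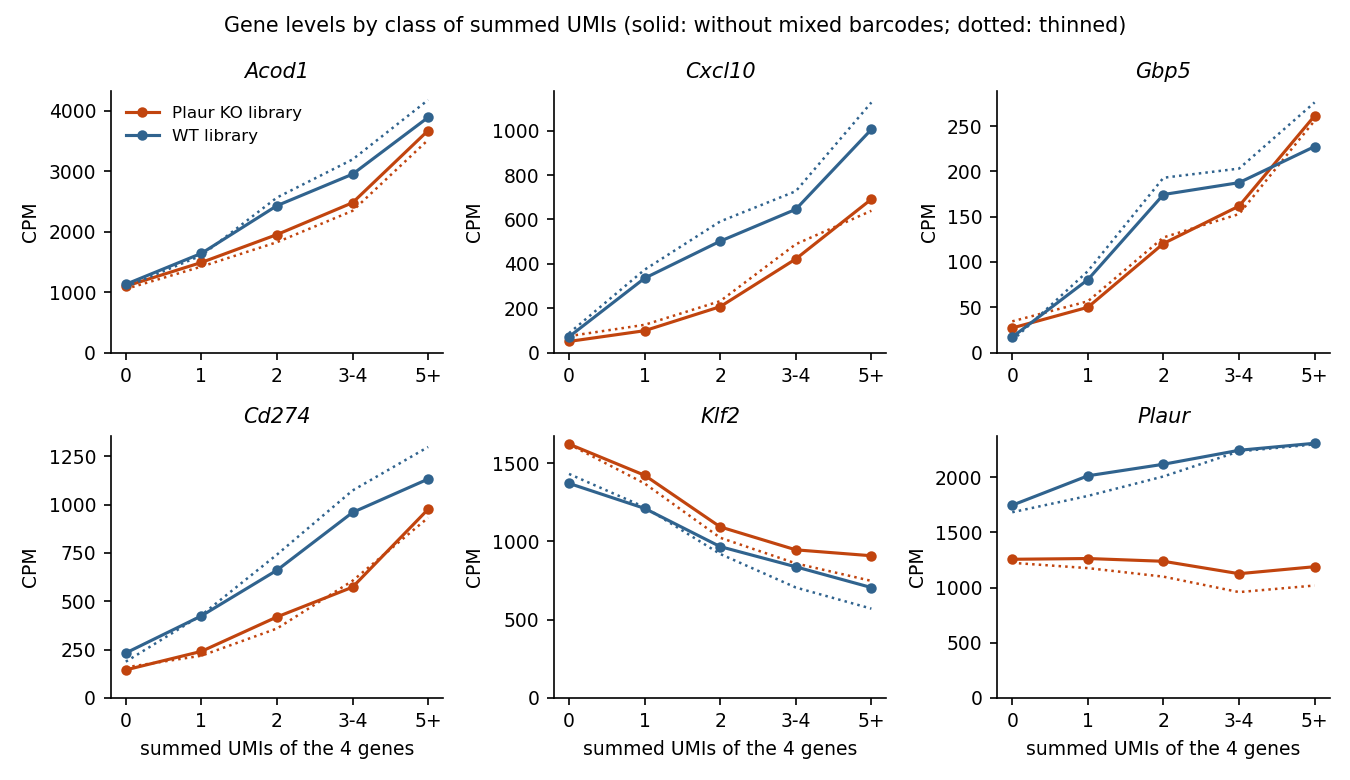
Level (CPM, vertical axes) of 6 genes in neutrophils by class of summed UMIs of F3, Hcar2, Egln3 and Rnd1 (horizontal axes), for the Plaur KO library (red) and the WT library (blue). Solid lines leave out mixed barcodes and dotted lines use barcodes thinned to 1000 UMIs. Acod1, Cxcl10 and Cd274 climb with the class in both libraries, Klf2 is lower with each class, and Plaur climbs in the WT library, from 1747 to 2308 CPM, but not in the KO library, from 1256 to 1189 CPM.

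Members with F3 and members with Egln3 were not alike. All values here leave out mixed barcodes. Members with F3 (179 KO, 264 WT) held far more Cxcl10 than members without it (671 KO, 619 WT): 1210.3 against 232 CPM in the KO library, a log2 ratio of 2.38, 2.20 to 2.56, and 1389 against 491 CPM in the WT library, 1.5, 1.37 to 1.64. Gbp5 stood at 472 against 102 CPM (KO) and 301 against 156 CPM (WT). Acod1 stood at 4824 against 2145 CPM (KO) and 4548 against 2670.1 CPM (WT). All 3 were higher with F3 in both libraries. Tagap (2.58 and 1.16), Icam1 (2.20 and 0.67), Sod2 (1.72 and 1.46) and Cd274 (1.58 and 0.77) were higher as well. The ratio was larger in the KO library for each of these genes. Bhlhe40 was near 0 (0.10 and -0.02).

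By lists, 11 of 11 (KO) and 10 of 10 (WT) measured guanylate-binding proteins and related GTPases were higher in members with F3, with medians of 1.31 and 0.66, against -0.10 and -0.04 for all genes. Genes of the type I interferon response were higher in 30 of 34 (KO) and 30 of 32 (WT), with medians of 0.33 and 0.37. NF-kB targets were higher in 29 of 40 (KO) and 32 of 39 (WT), with medians of 0.49 and 0.29. Hypoxia genes were higher in 9 of 27 (KO) and 10 of 26 (WT), with medians of -0.21 and -0.04 against -0.10 and -0.04 for all genes. Members with Rnd1 (127 KO, 165 WT) over those without had 11 of 11 and 9 of 10 guanylate-binding protein and related genes higher. The medians were 0.96 and 0.50, against -0.02 and -0.04 for all genes, and Cxcl10 had log2 ratios of 1.91 and 1.34. Members with Rnd1 were deeper, at a median of 2556 against 2063 UMIs (KO) and 2619 against 2014.5 (WT).

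Members with Egln3 (414 KO, 354 WT) had less Cxcl10, Gbp5, Tagap, Icam1 and Sod2 than members without it (436 KO, 529 WT). Gbp5 stood at 132 against 242 CPM in the KO library (-0.87, -1.16 to -0.59) and 166 against 233 CPM in the WT library (-0.49, -0.76 to -0.22). Acod1 (-0.11 and -0.33) and Sod2 (-0.36 and -0.49) were lower too. Other genes of members were not lower in both libraries: Cd274 stood at 702 against 637 CPM in the KO library (0.14) and had -0.29 in the WT library, while Ccl4 had 0.52 and -0.24, Olr1 0.38 and -0.05, and Txnrd1 0.51 and 0.12. Of the guanylate-binding and related genes 3 of 11 (KO) and 1 of 10 (WT) were higher. Their medians were -0.19 and -0.48, against -0.05 and -0.004 for all genes. Higher with Egln3 in both libraries were Cish (0.83 and 0.79), Bhlhe40 (0.40 and 0.73) and Ier3, a stress-induced survival gene (0.55 and 0.37). Hypoxia genes other than Egln3 were not, at 9 of 27 (KO) and 12 of 26 (WT) higher. Their medians were -0.15 in both libraries, against -0.05 (KO) and -0.004 (WT) for all genes. Members without Egln3 must hold 2 UMIs of the other 3 genes, so they are richer in F3 and Rnd1 by the rule itself. Median depth was 2153 against 2075 UMIs (KO) and 2151 against 2068 (WT) for F3, and 2239 against 1959 (KO) and 2289.5 against 1954 (WT) for Egln3. Members with Hcar2 (736 KO, 808 WT) over the few without (114 KO, 75 WT) had log2 ratios of -0.23 and -0.49 for Cxcl10 and of -0.05 and -1.12, -1.49 to -0.74 for Gbp5. Of the type I interferon genes 16 of 34 (KO) and 8 of 32 (WT) were higher with Hcar2, medians -0.03 and -0.32 against 0.07 and 0.05 for all genes.

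**Figure D4:**
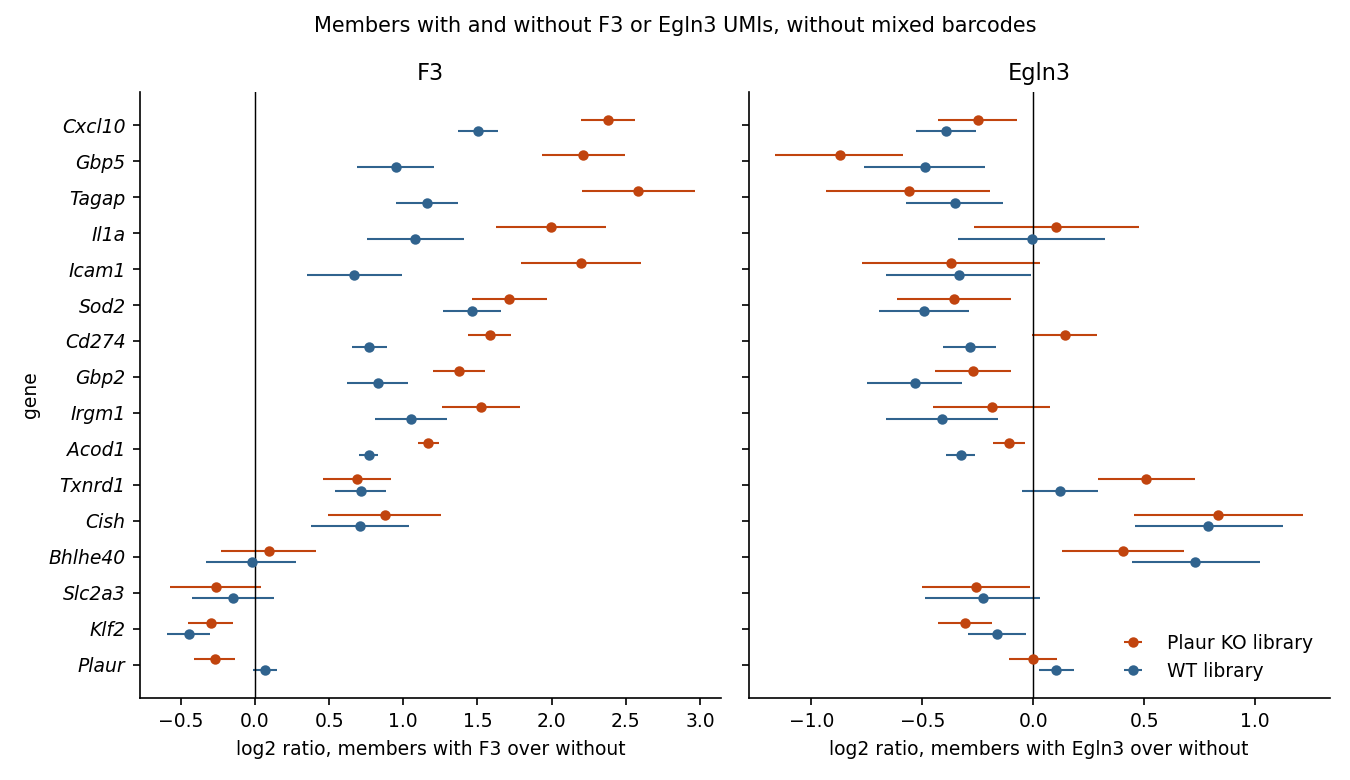
Log2 ratio of gene levels (horizontal axes) in members with over members without F3 (left panel) and Egln3 (right panel), without mixed barcodes, for 16 genes (rows). Red points are the Plaur KO library and blue points the WT library, and bars are 95% counting intervals. Cxcl10, Gbp5, Tagap and Icam1 lie to the right of 0 for F3 and to the left for Egln3, while Cish lies to the right for both.

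Antibody tags gave a second readout of the same barcodes. The tags carry these oligonucleotides, shown for the antibodies whose mean counts lay furthest above those of B cells:
CD11b: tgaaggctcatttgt
Ly-6C: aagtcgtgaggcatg
CD11b, the integrin alpha M of myeloid cells, had a mean of 191 tag UMIs per KO member and 233 per WT member, against 97.6 and 109.5 in the 0-UMI neutrophils and 6.40 and 8.04 in the B cells of the same libraries. Per 1000 gene UMIs the groups were close, at 43.6 (members) against 44.6 (0-UMI) in the KO library and 64.3 against 59.2 in the WT library. The mRNA of CD11b, Itgam, differed little (-0.08 and -0.12). Ly-6C had 59.7 tag UMIs per KO member and 37.8 per WT member, against 32.2 and 21.8 in 0-UMI neutrophils and 19.5 and 10.1 in B cells. Per 1000 gene UMIs Ly-6C stood at 13.6 (members) against 14.7 (0-UMI) in the KO library and 10.4 against 11.8 in the WT library. Without mixed barcodes the mean per barcode was 35.4 (KO) and 30.1 (WT) in members against 29.0 and 21.2 in 0-UMI neutrophils. The tags for CD14, CCR3 and ST2 lay close to their level in B cells, with log2 ratios of members over B cells between -0.16 and 0.21, although Cd14 mRNA was higher in members (0.60 and 0.66) and so was Il1rl1, which encodes ST2 (1.11 and 1.74). Il1rl1 was scarce, with 64 UMIs in KO and 40 in WT members, and was found in 3.09% and 2.80% of them. In 0-UMI neutrophils it had 6.53 CPM (KO) and 3.31 CPM (WT).

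KO members had lower levels than WT members of most NF-kB targets and immediate early genes, higher levels of most type I interferon genes, and a few genes with very large ratios. Of 9563 genes with at least 20 UMIs, 586 (6.13%) were more than 2-fold higher in KO members and 179 (1.87%) more than 2-fold lower. Without mixed barcodes these were 176 (2.46%) and 180 (2.52%) of 7140 genes, with 65 and 63 shared with the first counts. With mixed barcodes 60.2% of all genes were higher in KO members. The median of all genes was 0.11, and 0.00 without mixed barcodes. Scaled by DESeq2 size factors, which put the median of all genes at -0.0064, 443 genes were past 2-fold higher and 245 lower, and by TMM factors (median 0.012) 459 and 237. Beside the main values stands the log2 ratio of KO over WT in the 0-UMI neutrophils of the same libraries. Whether members differ from 0-UMI neutrophils in their KO to WT ratio was not tested.

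Plaur, the targeted gene, had 945 CPM in KO members and 1962 CPM in WT members, a log2 ratio of -1.05, -1.11 to -1.0. It was found in 83.1% of KO and 92.0% of WT members, and in 43.0% of KO and 31.8% of WT B cells. The count comes from the 3′ end of the transcript, and the extent of the deletion is not stated, so these UMIs check neither the label nor the protein. Within the KO library Plaur was lower in members than in 0-UMI neutrophils (-0.23, -0.30 to -0.17), and within the WT library it was higher (0.27, 0.20 to 0.34). Irgc1, whose end lies 15.3 kb from Plaur on chromosome 7, had 63.9 CPM in KO and 12.1 CPM in WT members (2.40, 1.94 to 2.89). Hprt, a purine salvage gene on chromosome X, had 573 CPM in KO and 46.8 CPM in WT members (3.61, 3.39 to 3.84), and was found in 75.4% and 11.8% of them. In 0-UMI neutrophils the ratios were 3.40 for Irgc1 and 4.04 for Hprt, so neither is confined to members.

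The genes lowest in KO over WT members by the naming rule included Ptgs2, Olr1 and Slc7a11. Ptgs2 had 353 CPM in KO and 1083 CPM in WT members, a log2 ratio of -1.62, -1.70 to -1.53, beside -1.48 in 0-UMI neutrophils. Olr1 had 499 CPM in KO and 1304 CPM in WT members (-1.38, -1.46 to -1.31), beside -1.23. Slc7a11, the cystine transporter that feeds glutathione synthesis, had 636 CPM in KO and 1459 CPM in WT members (-1.20, -1.26 to -1.13), beside -1.25. Without mixed barcodes the ratios in members were -1.33, -1.06 and -0.97, and -0.93 for Plaur. Ptgs2, Olr1 and Slc7a11 were lower in the KO library to much the same degree in both kinds of neutrophil. Tagap had 84.4 CPM in KO and 268 CPM in WT members (-1.67, -1.84 to -1.49), beside -0.71 in 0-UMI neutrophils, where it was low in both libraries. The nuclear receptor gene Nr4a3 (-1.71, beside -2.0), Cmss1 (-1.17, beside -1.14), Art3 (-1.74, beside -1.19) and Gm16174 (-2.76, beside -2.33), which lies 4.64 Mb from Plaur, were also among the 12 lowest. Camp, Ngp and Lpl, the other 3, rested on few barcodes: Camp and Ngp, genes of immature granules, were found in 0.483% and 2.03% of KO and 0.200% and 1.80% of WT members, and Lpl in 2.90% of KO and 4.30% of WT members.

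NF-kB targets and cytokines were lower in KO members in 37 of 48 measured genes, with a median of -0.52, whereas 60.2% of all genes were higher. Without mixed barcodes 36 of 44 were lower, with a median of -0.37. Of the 48 genes 9 were past 2-fold lower, against 1.87% of all genes, and 4 past 2-fold higher, against 6.13%. Tnf (-1.19), the NF-kB subunit Relb (-1.09) and Icam1 (-0.89) were lower, at -0.81, -0.87 and -0.60 without mixed barcodes, and the neutrophil chemokine gene Cxcl3 was higher (456 CPM in KO and 251 CPM in WT members, 0.86, 0.75 to 0.97). Immediate early genes were lower in 29 of 35, median -0.43, with Egr3 at -1.20 and Nr4a1 at -0.91. Over the 42 and 34 genes measured in both kinds of neutrophil, the medians were -0.52 and -0.42 in members and -0.47 and -0.39 in 0-UMI neutrophils. The genes that mark members over 0-UMI neutrophils were in part lower in KO members as well: Cd274 -0.92, Sod2 -0.80, Txnrd1 -0.75 and Acod1 -0.58, and without mixed barcodes -0.55, -0.72, -0.60 and -0.26.

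In KO members the type I interferon genes were higher, in 41 of 43 measured genes with a median of 0.48, against 60.2% of all genes higher. Without mixed barcodes 37 of 38 were higher, with a median of 0.46. Over the 42 genes measured in both, the median was 0.47 in members and 0.68 in 0-UMI neutrophils. Genes of the rule were not left out of these counts and medians. The list holds Ifit1, Ifit2, Ifit3, Ifit3b and Rsad2, whose sum the rule caps. That cap removed 548 KO and 133 WT neutrophils. Ifi27l2a had 1369 CPM in KO and 528 CPM in WT members (1.37, 1.30 to 1.45), beside 1.02 in 0-UMI neutrophils, and Slfn5 349 and 167 CPM (1.06, 0.93 to 1.2), beside 1.74. Guanylate-binding proteins and related GTPases were split, with 6 of 12 higher in KO members (median 0.06) beside 10 of the same 12 in 0-UMI neutrophils (median 0.78). The 12 include Irgc1, which lies 15.3 kb from Plaur and was higher in the KO library in both kinds of neutrophil. Without mixed barcodes 7 of 10 were higher in KO members (0.28) beside 8 of 10 (0.73). Wfdc17, a secreted inhibitor of macrophage activation, had 2435 CPM in KO and 1198 CPM in WT members (1.02, 0.97 to 1.07), beside 1.41. The metalloreductase gene Steap4 (1.15, beside 1.6) and the adaptor gene Sla (1.15, beside 1.05) were higher too.

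Of the 12 genes highest in KO over WT members, 9 were Fcgr1, Plcb1, Ms4a6d, S100a10, Crip1, Ms4a6c, Plac8, Ccl24 and Tmem160, with log2 ratios from 1.43 to 2.18. Most of their UMIs lay in mixed barcodes. S100a10 had 272 CPM in KO and 88.4 CPM in WT members with mixed barcodes, and 28.3 and 12.5 CPM without. Ms4a6c had 373 and 129 CPM with them, and 6.87 and 4.17 CPM without. Classical monocyte markers, at 3 or more of 7 in 135 KO and 59 WT members, moved with these genes, and their part in the result was not tested. Ccl1, the highest of all, had 229 UMIs in 1 KO member and 0 in WT members. Without mixed barcodes Cd74 (1.31) and H2-Ab1 (1.41), of antigen presentation, and Spp1, osteopontin (1.72), came among the 12 highest, whereas with them they had 0.23, 0.02 and 0.86.

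The other lists lay nearer to the median of all genes, which was 0.11, with 60.2% of all genes higher in KO members. Higher in KO members were 8 of 16 coagulation and plasminogen genes (median 0.03), 17 of 32 hypoxia genes (0.04), 11 of 17 glycolysis genes (0.09), 13 of 26 genes of itaconate and oxidative stress (-0.01) and 10 of 23 metabolite and lipid receptors (-0.01). So were 18 of 38 maturation genes (-0.01), 14 of 24 granule genes (0.13), 14 of 28 survival genes (-0.03), 11 of 26 migration receptors (-0.02), 11 of 27 interleukin and growth factor receptors (-0.11) and 10 of 17 matrix genes (0.16). Without mixed barcodes 6 of 14 coagulation and plasminogen genes were higher, with a median of -0.23. Of the genes of the rule, Egln3 had a log2 ratio of -0.10 for KO over WT members, near that of its list, while F3 (-0.84), Hcar2 (-0.57) and Rnd1 (-0.93) were lower. These 4 chose the members, so their ratios are a description. Genes of the rule were not left out of the lists for KO over WT members, among them F3 in the coagulation list and Retnlg in the maturation list.

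**Figure D5:**
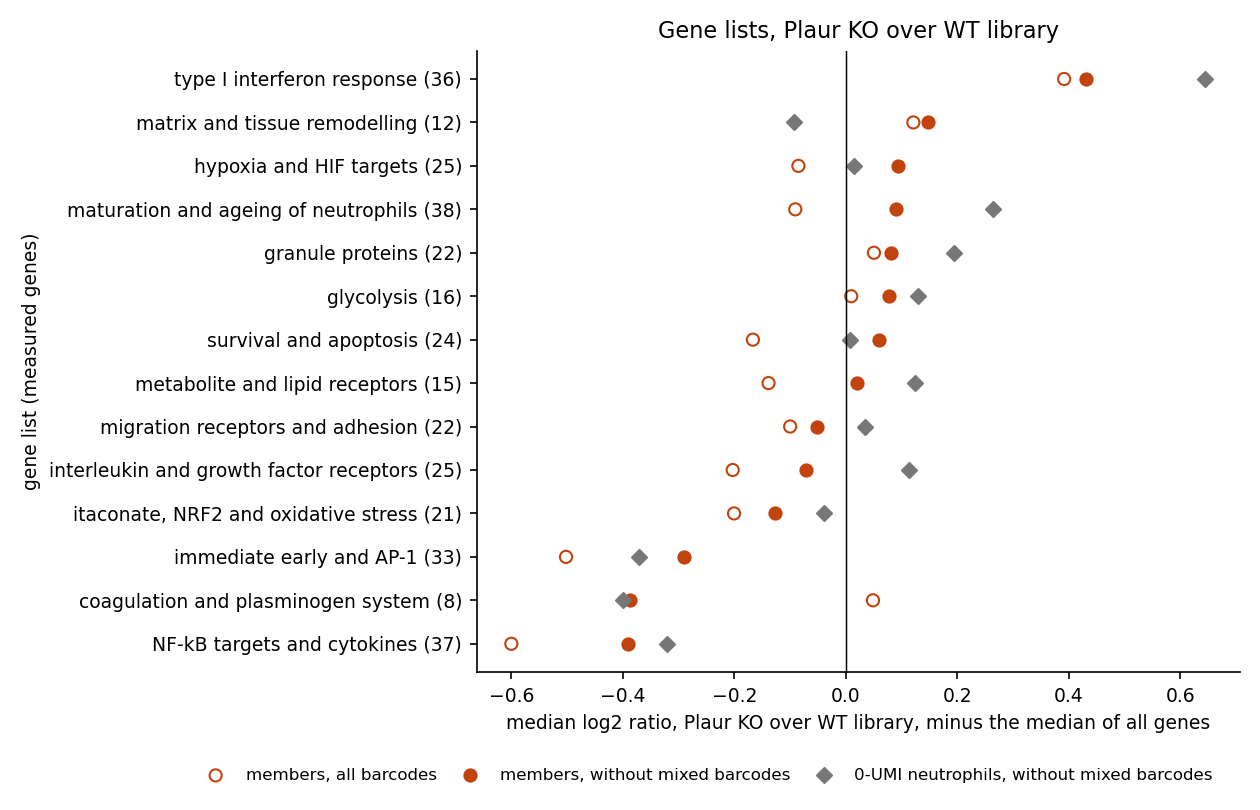
Median log2 ratio of Plaur KO over WT, minus the median of all genes (horizontal axis), for 14 gene lists (rows, with the number of genes measured in both kinds of neutrophil without mixed barcodes). Open circles are members, filled circles members without mixed barcodes and diamonds 0-UMI neutrophils without mixed barcodes. Type I interferon genes lie to the right of 0 and NF-kB and immediate early genes to the left in all 3, while coagulation genes lie near 0 with mixed barcodes and to the left without them.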

How the data were processed

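Gene and antibody-tag UMI counts of 2 libraries (10x 3′ v3.1 with TotalSeq-A) were used as the authors deposited them: filtered count matrices that, per the file headers, Cell Ranger 7.0.0 wrote. The submitters' processing notes name Cell Ranger 7.0.0 and 7.1.0 and mm10. Of 19126 deposited barcodes 18985 were kept. The members, lists and markers were chosen with earlier results of these data known.

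UMIs were summed per library and class of barcodes and divided by the class total (CPM). Log2 ratios have exact conditional binomial 95% intervals, with 0.5 UMI for a count of 0, and shares have Clopper-Pearson intervals. Both cover counting error only. Genes needed 20 UMIs, and called means past 2-fold. The interval step was tested on simulated data. Named were, per contrast, the 12 highest and 12 lowest genes at 100 UMIs by the bound nearest 0, with and without mixed barcodes, up to 4 highest and 3 lowest of each list at 50 UMIs, the genes of the rule, Acod1, Plaur and the antibody targets. The guanylate-binding protein genes, with their related GTPases, and the leaving out of mixed barcodes were added after seeing the data. A gene list and some single genes are not reported here.

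Doublets were called with Scrublet (scanpy 1.11.5, expected share 8%), kept, and removed as an alternative. Other alternatives thinned barcodes to 1000 UMIs, weighted barcodes alike, scaled with TMM (edgeR 4.0.16) or size factors (DESeq2 1.42.0), and changed each line of the rule. The work ran in R 4.3.3 and in Python 3.11.15 with SciPy 1.17.1, pandas 2.3.3 and NumPy 2.4.6. Promoters came from RefSeq (GRCm38.p6), for F3, Egln3 and Acod1.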

Additional observations from a re-analysis of the deposited data

Results flagged for a closer look

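Plaur and 7 other genes were higher in members than in 0-UMI neutrophils in one library and lower in the other, with intervals on opposite sides of 0. With 1 library per genotype the difference between the libraries itself was not tested. Plaur had a log2 ratio of members over 0-UMI neutrophils of -0.23 in the KO library and 0.27 in the WT library. Ifi27l2a had 0.18 (KO) and -0.18 (WT), Mt1, a metallothionein, 0.52 and -0.64, and Chil3, a chitinase-like granule protein, 0.48 and -0.27. Ccl24, the chemokine eotaxin-2, had 1.95 (KO) and -1.84 (WT), and without mixed barcodes the direction turned in both libraries. The genes of early granules Camp (-4.75 in KO, 0.81 in WT), Ngp (-2.88 and 0.65) and Ltf (-2.36 and 1.67) rested on few barcodes, with Camp found in 0.483% of KO and 0.200% of WT members.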

How the results depend on the processing

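No paired analysis was possible because each genotype has 1 library. That also leaves no replicate to leave out, and the number of mice behind each library limits every KO to WT value. The log2 ratio of member shares, KO over WT, was -0.47 and stayed below 0 throughout, at -0.26 with 1 UMI as the minimum, -0.64 with 3, -0.63 without Egln3 in the sum, -0.78 after thinning and -0.12 over all kept barcodes.

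Counts of genes past 2-fold followed the minimum. Higher in members were 169 genes, against 570 with no minimum, 79 at 100 UMIs and 278 with barcodes weighted alike. Lower were 13, against 25 with 3 UMIs as the minimum of the rule, 28 without Hcar2, 5 with S100a8 and S100a9 at 5%, 273 with no minimum of UMIs, 0 at 100 UMIs and 32 weighted alike. Higher in KO members were 586, against 229 thinned, 1913 with no minimum, 155 at 100 UMIs and 176 without mixed barcodes. Lower were 179, against 2259, 44 at 100 UMIs and 289 weighted alike. The causes were not tested beyond what each setting removes.

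List medians, less that of all genes, moved as follows for members over 0-UMI neutrophils (mean of both libraries). Itaconate genes had 0.05, and 0.30 both thinned and without mixed barcodes. Immediate early genes had 0.13 (0.36 without mixed barcodes). Maturation genes had -0.22, against -0.050 thinned, -0.073 weighted alike and 0.026 without mixed barcodes. Migration receptors had 0.07 (0.26 thinned and weighted alike), interleukin and growth factor receptors 0.18 (0.39 thinned) and matrix genes 0.19 (0.57 with S100a8 and S100a9 at 5%).

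For KO over WT members, coagulation genes had -0.07, against -0.26 without Egln3 and -0.42 with no minimum. NF-kB genes had -0.63 (-0.43 thinned, -0.38 without mixed barcodes) and immediate early genes -0.53 (-0.30 thinned, -0.34 weighted alike, -0.30 without mixed barcodes). Maturation genes had -0.12 (0.045 thinned, 0.092 without mixed barcodes), granule genes 0.02 (0.19 without Hcar2), migration receptors -0.13 (0.038 thinned, 0.037 without mixed barcodes) and interleukin and growth factor receptors -0.22 (-0.084 weighted alike, -0.069 without mixed barcodes).

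Tags depended on the scale. For members over 0-UMI neutrophils, CD11b had 0.97 in the KO and 1.09 in the WT library, against 0.75 and 0.85 by medians, 0.38 and 0.41 by centred log-ratio and 0.76 and 0.88 without mixed barcodes. Ly-6C had 0.89 and 0.79, against 0.37 and 0.51, 0.13 and 0.16, and 0.29 and 0.51. For KO over WT members, relative to B cells, CD11b had 0.04 (-0.29 with no ratio to B cells, -0.62 by medians, -0.18 by centred log-ratio, -0.019 without mixed barcodes) and Ly-6C -0.29 (0.66, -0.46, -0.19 and -0.72).

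Single genes that turned direction did so mostly without mixed barcodes. For members over 0-UMI neutrophils these were Fcgr1 (-0.15) and Iigp1 (0.85) in the KO library, and Ms4a6c (-1.03) and Lpl (-0.53) in the WT library. Ccl24 turned in both (-1.73 in KO and 2.40 in WT, and -0.052 and 1.84 with S100a8 and S100a9 at 5%). Spp1 turned in the WT library without doublet calls (0.23) and at 5% (0.98). For KO over WT members Plcb1 (-0.54), Ccl24 (-1.54) and Chil3 (-0.49) turned without mixed barcodes, Camp (1.81) and Ngp (1.28) without Hcar2, Ngp also without its 5 richest barcodes (0.087), and Lpl at 5% (1.2).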
